A study of Mus musculus with 12 samples.

Results

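The transcripts of Wtap, Virma, Rbm15, Rbm15b, Zc3h13 and Cbll1, which encode the accessory subunits of the N6-methyladenosine (m6A) writer complex, carried 16 of the 17503 m6A peaks with a gene name in liver. The members are all peaks that the authors' deposited table assigns to one of these 6 gene names, whatever their change. The study set livers of C57BL/6 wild-type mice against livers of C57BL/6 mice labelled Mettl3-deficient, at a postnatal stage per the series title. Each genotype had 3 replicates, and each replicate gave an m6A immunoprecipitation (IP) library and an input library, so that 12 libraries stood in 4 groups of 3. The allele or promoter used to remove Mettl3, the cells in which it was lost and the age of the mice were not stated in the labels. Values per library were not analysed here: each peak has a log2 fold change between the genotypes and a false discovery rate (FDR) from the authors' deposited table, read depth and the spread between mice are unknown, and whether the FDR takes in that spread is not given.

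m6A is written on nuclear mRNA by a heterodimer of METTL3, the catalytic subunit, and METTL14, which helps to bind the RNA. A larger set of accessory proteins holds the heterodimer in nuclear speckles and brings it to its targets, and the mark is densest around stop codons and in 3′ untranslated regions (UTRs) of mRNA. WTAP anchors the heterodimer, VIRMA is the large scaffold, RBM15 and its paralogue RBM15B bind RNA, ZC3H13 keeps the complex in the nucleus, and CBLL1 (HAKAI) is a RING-type ubiquitin ligase by sequence. Among the gene ontology terms in the authors' deposited table, that for the m6A methyltransferase complex is attached to all 6 members and to no other named gene there. The term names the whole complex and does not part accessory from catalytic subunits, and Mettl3 and Mettl14 have no listed peak. All 6 members also carry the nuclear speck term, which 290 named genes hold.

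The sign of the change has to be read with care. The table does not name the numerator of the fold change. Neither Mettl3 nor Mettl14 has a peak among those analysed, which leaves the genotype labels without a check by the targeted gene. Because the design sets loss of the methyltransferase against wild type, a negative value likely stands for less m6A enrichment in Mettl3-deficient liver. That reading rests on the design alone and was not tested. Peaks with a deposited FDR of at most 0.05 are termed called. Both signs were common, with 40.6% of all listed peaks negative and called and 35.6% positive and called. Whether the deposited change allows for the level of the RNA in the input is not stated, so less methylation and less of a transcript cannot be told apart, and neither can fewer cells of a type and less RNA per cell.

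Peaks of the accessory subunit transcripts were mostly negative and called. Of the 16 peaks, 14 (87.5%) were negative and called, none was positive and called and 2 were not called, while 40.6% of all listed peaks were negative and called and 35.6% were positive and called. The 16 include an overlapping pair in Rbm15b and another in Cbll1, and with overlapping peaks merged 12 of 14 were negative and called. A change of -1 or lower on the log2 scale was reached by 11 of the 16 peaks (68.8%), each of them called, against 29.0% of all listed peaks. The median log2 fold change was -1.48 over the member peaks and 0.34 over all listed peaks. By the peak with the smallest FDR in each gene, here called the leading peak, all 6 genes were negative and called, against 47.6% of all named genes, and the medians were -1.50 and -0.52. In size the called peaks lay mostly within the range of the others: the median of their 14 called negative peaks was -1.49, all called negative peaks of the table had a median of -1.34 with quartiles of -1.84 and -0.93, and 11 of the 14 lay between those quartiles. No test of the list was made, because its members were chosen with earlier results of these data known.

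**Figure D1:**
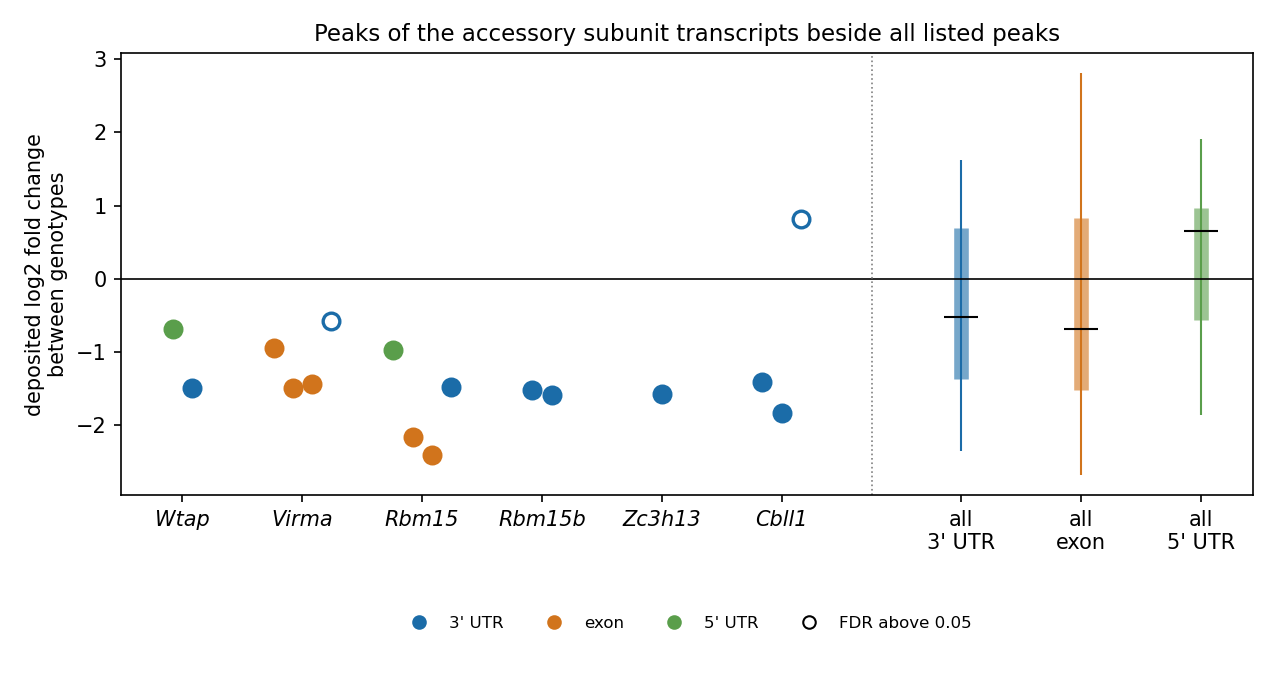
Deposited log2 fold change (vertical axis) of each listed peak of the 6 genes, in 5′ to 3′ order within a gene, coloured by the authors' feature label, with open circles for FDR above 0.05. At the right, all listed peaks by feature are drawn with a dash for the median, a thick bar from the 25 to the 75 percentile and a thin line from the 5 to the 95 percentile; every filled circle lies below 0, from -0.69 in Wtap to -2.40 in Rbm15.

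WTAP is the adaptor that binds the METTL3–METTL14 heterodimer and keeps it in nuclear speckles. Its gene lies on the minus strand of chromosome 17 (RefSeq span 12966799 to 12992543, mm10), and 2 peaks were assigned to it. The 3′ UTR peak at chr17:12966796-12972739 stood at -1.49 in the authors' deposited table, a ratio (the fold change itself, not its log2) of 0.356, with a log10 FDR of -77.8. It begins at 76.9% of the gene span and runs 3 bases past the RefSeq end. For the peak labelled 5′ UTR, at chr17:12974263-12983672, the authors' deposited table gives -0.69 (ratio 0.62, log10 FDR -16.1). That label belongs to an internal transcript start: the peak begins 8871 bases inside the RefSeq 5′ end and covers 34.5 to 71.0% of the span. Both peaks of Wtap were therefore negative, the one at the 3′ end by more. Both are wide, 5944 and 9410 bases on the genome with introns included, so neither locates a modified adenosine.

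VIRMA is the scaffold subunit, known for guiding methylation towards 3′ UTRs and stop codons. Its gene lies on chromosome 4 (11485958 to 11551143) and had 4 narrow peaks, 121 to 421 bases wide. For the peak in exon 8 of 13, at chr4:11513592-11514012, the authors' deposited table has a log2 fold change of -0.94 (log10 FDR -2.09). The authors' deposited table gives -1.49 (log10 FDR -2.74) for the peak in exon 9, at chr4:11519159-11519279, and -1.44 (log10 FDR -2.36) for the peak in exon 13, at chr4:11526637-11526817. All 3 exon peaks were negative and called, at ratios of 0.521, 0.356 and 0.369. They were assigned to a transcript that ends well inside the gene, since the peak in its last exon lies at 62.4 to 62.7% of the gene span. A peak in the 3′ UTR of the longer transcript, at chr4:11550294-11550654, was not called, with -0.58 and an FDR of 0.0646 (log10 FDR -1.19) from the authors' deposited table. Virma thus had the weakest evidence among the 6 genes: the log10 FDR of its leading peak was -2.74, while those of the leading peaks of the other genes ran from -31.5 to -104. The 3′ UTR value was closer to 0 than those of the 3 exon peaks, but that difference was not tested, as values per library were not analysed.

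RBM15 is an RNA-binding protein of the SPEN family that brings the complex to its targets. Its gene lies on the minus strand of chromosome 3, and its 4 separate peaks lie between 2.72 and 29.5% of the RefSeq span, the last of them, labelled 3′ UTR, ending 20419 bases before the RefSeq 3′ end. The peak labelled 5′ UTR, at chr3:107332775-107333673, stood at -0.97 in the authors' deposited table (ratio 0.511, log10 FDR -4.87). This peak starts at the first base of the transcript that the authors used, as the distances given for the other peaks place that start at 107333673. It contains the whole RefSeq promoter window of the gene (250 bases before to 50 after a RefSeq transcript start, assembly GRCm38.p6, the same build as mm10). Of the 5 members with such a window, only Rbm15 has a listed peak of its own over it, so its sequence bears on the data. The m6A consensus was searched there as the 18 words of 5 bases that have any base but C first, a purine second, A and C next, and any base but G last. The transcribed strand holds 5 matches, printed with 30 bases each, 5′ to 3′ on the minus strand of GRCm38.p6, and with the word in capitals; positions of the first base of a word are counted from 1 at the RefSeq start, with negative numbers upstream.
Rbm15, position -153, chr3:107333425-107333454: gaaaaaacgcctGAACTgatgtccagactt
Rbm15, position -141, chr3:107333413-107333442: gaactgatgtccAGACTtcccgatagtgat
Rbm15, position -106, chr3:107333378-107333407: agacgtggccacAAACCaatgaaagggaag
Rbm15, position 3, chr3:107333270-107333299: ctttgggtcaggTGACCatgaagtgcgagg
Rbm15, position 45, chr3:107333240-107333269: ggcggagctacagcctggcgcgagGAACCg

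None of the 5 matches is GGACT, and the words do not overlap one another, although their printed surroundings do. The other strand holds 5 matches as well. Such matches are common in windows of this length: 98.4% of the 32817 promoter windows of 300 bases hold at least 1 on the transcribed strand and 99.9% on either strand, the median is 5 per strand, and 59.0% hold at least as many as Rbm15 does on the transcribed strand. The matches describe the letters under the peak and do not locate a modified base.

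Further into Rbm15 the changes were larger. The leading peak, at chr3:107330860-107332326 in exon 1 of 2, had -2.16 in the authors' deposited table (ratio 0.224, log10 FDR -104). A narrower peak in the same exon, at chr3:107330201-107330680 and 179 bases further 3′, stood at -2.40 (ratio 0.189, log10 FDR -65) in the authors' deposited table. At chr3:107325930-107327239, in the 3′ UTR, the authors' deposited table has -1.48 (ratio 0.358, log10 FDR -22.7). Rbm15 thus had the most negative peaks of the 6 genes, and both exon peaks lay below the lower quartile of called negative peaks: 6.77% of all listed peaks were more negative than the peak at -2.16 and 4.36% more negative than that at -2.40. All 4 peaks of Rbm15 were negative and called, which was so in 12.2% of the 549 genes with 4 or more listed peaks. The difference between the leading exon peak and the 5′ UTR peak, exon minus 5′ UTR, was -1.19 in log2 units. In the 347 genes with called peaks of both kinds, the exon peak was lower in 72.3%, with a median difference of -0.25.

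**Figure D2:**
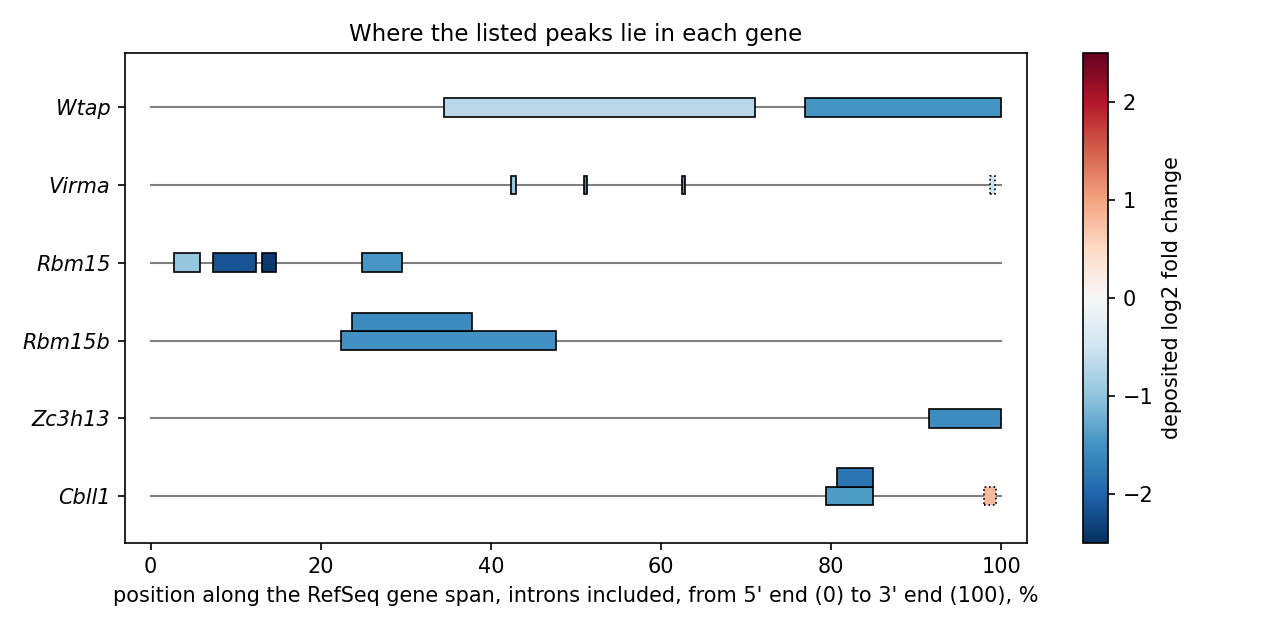
Listed peaks of the 6 genes along the RefSeq gene span, introns included, from the 5′ end (0) to the 3′ end (100%) on the horizontal axis. Colour gives the deposited log2 fold change, a dotted outline marks FDR above 0.05, and overlapping peaks are stacked; the darkest boxes are the exon 1 peaks of Rbm15 at -2.16 and -2.40, and the only box in the positive colour is the terminal one of Cbll1 at 0.81.

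RBM15B is the paralogue of RBM15 and shares its role in bringing the complex to RNA. Its gene is short, 6148 bases on the minus strand of chromosome 9 (106880928 to 106887075), and 2 overlapping peaks were listed. The wider one, at chr9:106884143-106885696, had a log2 fold change of -1.51 (ratio 0.351, log10 FDR -97) in the authors' deposited table. A narrower one, at chr9:106884751-106885619, lies wholly within it and had -1.59 (ratio 0.332, log10 FDR -43.5) in the authors' deposited table. This pair is thus close to 1 measurement given a second time, and the values differ by 0.08. Both are labelled 3′ UTR, and both have a distance of 0 from the start of the transcript assigned to them. The bounds of that transcript were not examined. On the RefSeq span the peaks cover 22.4 to 47.7% from the 5′ end and stop 3215 bases before the 3′ end. The authors' deposited table also lists across this stretch an 18193-base peak of the neighbouring gene Dcaf1, at 0.64 and not called (log10 FDR -0.45).

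ZC3H13 is a zinc finger protein that links RBM15 to WTAP and retains the complex in the nucleus. Zc3h13 had 1 peak, at chr14:75339318-75344426 and labelled 3′ UTR. Its log2 fold change in the authors' deposited table was -1.57 (ratio 0.337, log10 FDR -34.2). It begins at 91.5% of the gene span and ends 7 bases before the RefSeq end at 75344433. Among called negative 3′ UTR peaks of all genes, 36.0% were more negative.

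CBLL1, also named HAKAI, was first known as a ubiquitin ligase and is a stable part of the writer complex. Its gene lies on the minus strand of chromosome 12 (31484829 to 31500676), and all 3 of its peaks are labelled 3′ UTR. Its leading peak in the authors' deposited table, at chr12:31487221-31488088, had a log2 fold change of -1.41 (ratio 0.376, log10 FDR -31.5). A second peak, at chr12:31487222-31487889, had -1.83 (ratio 0.281, log10 FDR -27.2) in the authors' deposited table, and all of its 668 bases lie in the first. Both were negative and called, but they differ more than such pairs usually do. Of the 671 pairs of called peaks of 1 gene that shared at least 50% of the larger peak, the median difference was 0.02 on the log2 scale (quartiles 0 and 0.04), and 22 (3.28%) differed by at least the 0.42 seen in Cbll1. In Rbm15b the difference of 0.08 was reached by 17.1% of those pairs. The table gives no strand for a peak, but the rows around these peaks mostly name genes of 1 strand. Among the 20 rows before and the 20 after the peak at -1.83, 33 belong to genes on the plus strand and 2 to genes on the minus strand, while around the peak at -1.41 it is 1 and 30. What this means for the peak at -1.83, whose gene is on the minus strand, was not tested.

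The third peak of Cbll1 was the only positive one among the members. It lies at chr12:31484919-31485158, ends 90 bases before the RefSeq 3′ end of the gene, and had a log2 fold change of 0.81 in the authors' deposited table, a ratio of 1.75. Its log10 FDR was -0.81 in the authors' deposited table, an FDR of 0.155, so it was not called. The lowest and highest values within a gene therefore lay 2.64 apart in Cbll1, against 1.43 in Rbm15, 0.91 in Virma, 0.80 in Wtap and 0.08 in Rbm15b. The ranges of Cbll1 and Virma take in a peak that was not called. The 2 called peaks of Cbll1 differ by 0.42, less than the range in Rbm15. In both Virma and Cbll1 the peak nearest the 3′ end of the RefSeq gene span was the one that was not called.

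**Figure D3:**
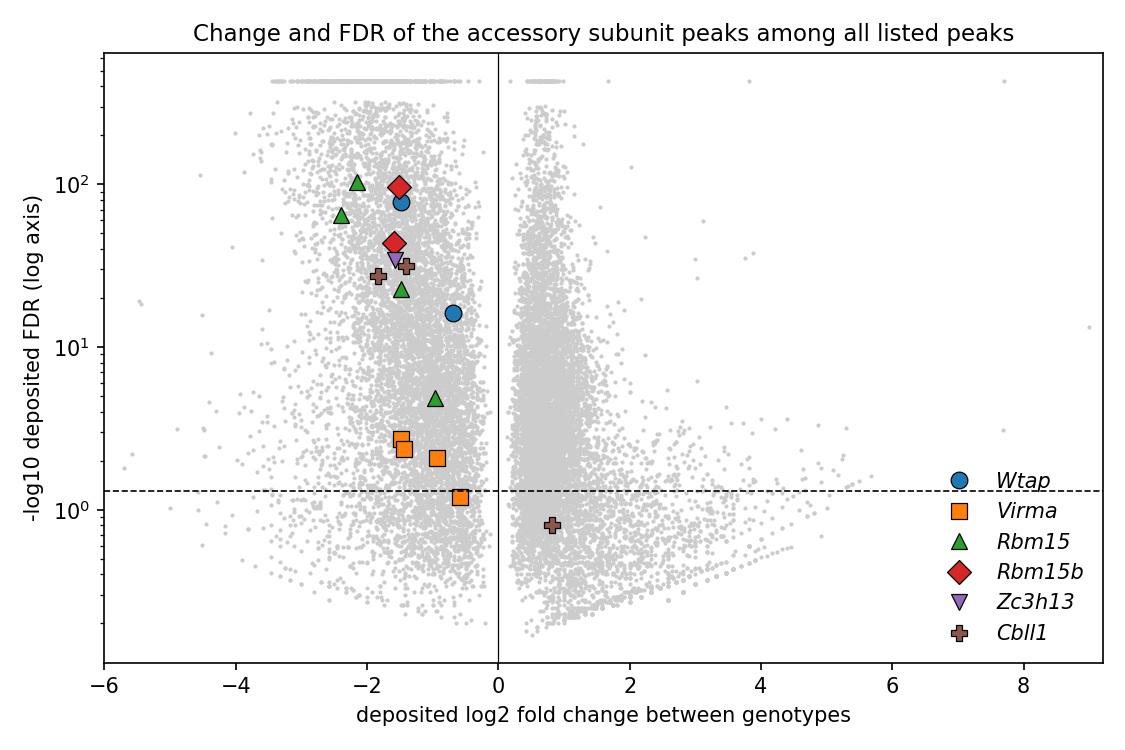
Deposited log2 fold change (horizontal axis) against -log10 of the deposited FDR (vertical log axis) for all 17503 listed peaks (grey) and the 16 member peaks (symbols by gene), with the FDR of 0.05 dashed. All member peaks but 1 lie on the negative side; the exception is the terminal Cbll1 peak at 0.81, below the dashed line, and the 4 peaks of Virma lie near that line, from -1.19 to -2.74 in log10 FDR.

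Sorted by the authors' feature labels, the negative sign was not limited to 1 label. A label belongs to the transcript that the authors used and need not give the place in the gene. The 5′ UTR peak of Wtap covers 34.5 to 71.0% of the RefSeq span, and the 3′ UTR peaks of Rbm15b lie between 22.4 and 47.7%. Of the 9 peaks labelled 3′ UTR, which came from all 6 genes, 7 were negative and called, 4 of them in the overlapping pairs of Rbm15b and Cbll1, where the share over all 3′ UTR peaks was 48.9%. The median over the 9 was -1.49, and that over all 3′ UTR peaks -0.52. All 5 exon peaks, from Virma and Rbm15, were negative and called, where the share over all exon peaks was 38.6%, and the medians were -1.49 and -0.68. Both 5′ UTR peaks, of Wtap and Rbm15, were negative and called, in a feature where 23.0% of all peaks were so and the median was 0.65. Wtap and Rbm15 were thus 2 of the 292 genes, among 1475 with called peaks in both UTRs, in which both leading UTR peaks were negative. The difference of these peaks, 3′ UTR minus 5′ UTR, was -0.80 in Wtap and -0.51 in Rbm15 on the log2 scale. Over the 1475 genes the 3′ UTR peak was lower in 73.5% and the median difference was -0.45, so the difference of these 2 genes was near the middle: 40.9% of the genes had a more negative one than Wtap and 47.7% a more negative one than Rbm15.

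Pooled over lists and counted by peak, other genes of the m6A pathway had shares of called peaks close to those of the whole table. The lists differed from one another. In 5 further lists of 30 genes, 22 had a listed peak, with 44 peaks in all: 18 (40.9%) called on the negative side, 17 (38.6%) called on the positive side and 9 not called, beside 40.6% and 35.6% of all listed peaks. By leading peak, 13 of the 22 genes were negative and called, 6 positive and called and 3 not called. For leading peaks, also counted by list below, the shares over all named genes were 47.6% negative and 33.6% positive. Among other RNA methyltransferases, 4 of 8 genes had a listed peak, with 3 leading peaks negative and 1 positive. Mettl16, whose enzyme methylates a spliceosomal snRNA, has -1.31 (log10 FDR -20.3) at a 3′ UTR peak of the authors' deposited table. The authors' deposited table gives -0.83 for Pcif1, the enzyme of the cap-adjacent mark, and 0.66 for Mettl5, which methylates ribosomal RNA. Of 2 demethylase genes, 1 was positive and 1 not called. Of 5 YTH reader genes 4 were negative and 1 not called, and other m6A-binding protein genes gave 2 negative and 3 positive leading peaks. The median of the leading peaks was -1.85 in the YTH readers, more negative than the -1.5 of the members. It was -1.07 in the other methyltransferases, 0.72 in the demethylases and 0.31 in the other binding proteins. Over all peaks the order of readers and members was the other way, with medians of -1.26 in the YTH readers and -1.48 in the members. Of the 7 peaks of the YTH readers, 4 were negative and called, 2 positive and called and 1 not called.

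Among partners and relatives of the subunits, 4 of 6 genes were negative by leading peak, 1 was positive and 1 not called, with a median of -0.52. The shares of leading peaks over all named genes were 47.6% negative and 33.6% positive. Spen, the founding member of the family of Rbm15 and Rbm15b, resembled Rbm15 in sign: in the authors' deposited table it had -1.34 in the 5′ UTR, -0.54 and -1.08 in called exon peaks and -0.96 in an exon peak that was not called (log10 FDR -1.27). Thrap3, the gene of a splicing-associated protein, held -0.54 at its leading peak but 0.66 and 0.55 at further called peaks in the authors' deposited table. Whether the accessory subunits differ from these lists was not tested.

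As to the whole table, 76.2% of listed peaks were called in either direction. All 5 hepatocyte markers looked up (Alb, Apoa1, Ttr, Hnf4a and Cyp2e1) had a listed peak, as had all 7 markers of endothelial, stellate and macrophage cells. By leading peak, 3 hepatocyte markers were negative and 2 positive, with a median of -1.11. Over all 9 peaks of the hepatocyte markers the balance was the other way. Of these, 3 were negative and called and 6 positive and called, with a median of 0.61. The Apoa1 peaks, at 0.55 and -1.11, had the same deposited FDR, so the FDR alone did not pick the one at -1.11. All 3 endothelial markers (median 0.81) and both stellate markers (median 0.65) were positive and called, and of 2 macrophage markers 1 was negative and 1 positive. These are changes at peaks and not RNA levels, and the part of the makeup of the livers in the members' values was not tested.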

How the data were processed

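Libraries of m6A IP and input RNA were made from poly(A) RNA of wild-type and Mettl3-deficient livers, per the labels' protocols. The submitters' processing notes name the aligner HISAT2 2.1.0 and the genome mm10; the peak caller, the model of the comparison and its use of replicates were not stated. The table holds, per the file headers, the authors' log2 fold change, log10 FDR and p-value (rounded to 2 decimals) of every peak. In 189 of 17692 rows the gene name was missing and these cells stood in another order, so those rows were left out. The log2 fold change and the log10 FDR are taken as scores that the authors computed, per the headers. The planned fits per library and the ranking of genes of like pattern were not run, since the table holds 1 comparison.

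Counts, medians, shares, overlaps and positions were computed here with Python 3.11.15, numpy 2.4.6, pandas 2.3.3 and matplotlib 3.10.9, and the counting steps were tested on simulated data. The 25 peaks with a log10 FDR of -1.30 were not called. Gene spans, strands and promoter sequences are RefSeq's for GRCm38.p6; all 6 symbols matched, and 5 had a promoter sequence. The strand of Virma was taken from the deposited distances. All members and each gene of the pathway lists could be named. Members and lists were chosen with earlier results of these data known.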

Additional observations from a re-analysis of the deposited data

How the results depend on the processing

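Of the 25 alternatives computed, 23 left the count of called negative peaks within 1.5 times, all 6 genes negative, or the median of the leading peaks within 0.28, the SD over the 6 genes. Some of these 23 could not have moved. No gene held more than 4 of the 14 called negative peaks, so leaving out 1 gene could not take the count past that limit. The middle values of the 6 leading peaks were -1.51 and -1.49, so the median without 1 gene had to be 1 of these. Centring on a positive median could not lower the count. With peaks of up to 1000 bp only, 8 called negative peaks remained of 10, because 6 wider ones were dropped. With changes centred on the median of all listed peaks (0.34), the median of the leading peaks was -1.84. The leading peaks of all genes had a median of the other sign, -0.52, and centring on that was not run. With overlapping peaks merged, the count was 12 of 14; without both overlapping pairs, an alternative chosen after seeing the data, it was 10 of 12. Without any 1 gene it ran from 10 to 13, and the median from -1.51 to -1.49. Leaving out replicates was not run, and no paired analysis was possible because values per library were not analysed here. Depth is unknown, so how far it limits the calls of Virma and of the terminal Cbll1 peak cannot be told.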
